A study of Mus musculus with 34 samples.

Results

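Teratomas were compared with ES cells that had differentiated in culture, at the level of methylation of CpG islands. The arrays were chosen by their labels: teratoma replicates 1 and 2, and all 5 arrays of mouse ES cells differentiated in vitro, 7 of the 34 arrays of the series. The study asked whether CpG islands keep their normal methylation when ES cells differentiate. It used methylated DNA immunoprecipitation (mDIP), in which an antibody against 5-methylcytosine enriches methylated fragments (bound, Cy5), which are hybridised with unenriched DNA (input, Cy3) to an array of CpG island probes. The log10 ratio of bound over input of each probe was turned into a Z-score within its array, and the mean Z-score of the probes of an island is its island methylation score (IMS). A score of 0 is the mean of all probes of an array, so an IMS is a relative measure and not a percentage of methylated molecules. In all, 13282 autosomal islands of at least 3 probes (median 5) were scored, and 11559 of them carried a gene name.

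The labels give J1 as the parent ES line of both teratomas, whereas the study's methods name ES cells D3 and C4. By those methods, the cells were injected under the skin of immunodeficient NOD-SCID mice with a basement membrane matrix, and the tumours were taken 2 weeks later. A teratoma holds tissues of several germ layers together with vessels, blood and connective tissue of the host, and its cells were not sorted. Embryoid bodies, which are aggregates grown without LIF, came from the ES line TT2 and had 1 array. Retinoic acid treated cells had 1 array, with TT2 as the parent by the labels and by a figure legend of the study, and J1 by its methods. Endoderm (2 arrays) and mesoderm (1 array) were made with Activin A and sorted from cells derived from the ES line EB5. No differentiated culture is labelled J1 and all teratomas are, so parent line and place of differentiation cannot be told apart. The labels do not say whether replicates came from separate animals or cultures, so a p-value measures the spread between these arrays only.

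CpG islands are short stretches rich in CpG, many of them at gene promoters, and most stay unmethylated in all cell types of the body. DNA methylation of an island goes with lasting silence of its gene. Imprinted genes are an exception, since their control regions carry methylation on the allele of 1 parent only, set in the germ line and kept in body tissues. Homeobox genes, Hox genes among them, encode transcription factors that set cell and segment identity, and many of their islands carry Polycomb proteins in ES cells.

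Across the 13282 islands, the teratoma arrays correlated with each other with r = 0.957. Their r with differentiated arrays was between 0.725 (teratoma 1 with endoderm 1) and 0.877 (teratoma 2 with retinoic acid), with islands that are not independent as the points. The SD of the log10 ratios was 0.429 and 0.467 in teratomas and 0.269 (endoderm 1) to 0.431 (embryoid bodies) in differentiated cells. The input lay at a median of 3.07 to 7.30 times background on the 7 arrays, and the bound signal at 1.93 and 2.10 times in teratomas against 2.14 to 3.54 times in the others. Each of the 7 arrays lay on its own slide and was scanned on its own day, so slide or day and group cannot be told apart. Software version and probe grid were shared in part, by teratoma 1 with 3 cultures and by both teratomas with 2. The retinoic acid array alone of the 7 was read on another scanner, with its own software version and grid. Its treatment therefore cannot be told apart from these. Undifferentiated TT2 and the array of the youngest embryo were read on that scanner too.

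The scanner file of the array labelled undifferentiated J1 went against its label, and unlike in the other arrays its values did not follow the deposited ones. Its scores correlated with those of adult pancreas 2 with r = 0.963, which was above the r of 0.935 between the pancreas arrays. At the 7 islands higher in pancreas than in all other adult tissues, its mean IMS was 2.16, against 2.16 and 2.19 in pancreas and at most 1.17 in any other array of embryos, ES cells or teratomas. The teratomas had 0.123 and 0.225 there. The array labelled J1 was therefore given no part in the comparison of teratomas with their parent line, and no other array of that line was analysed here. No expression was measured on these arrays, so the tissues within the teratomas were not tested by markers.

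Teratomas and differentiated ES cells differed at 356 of 13282 islands (2.68%; limma, Benjamini-Hochberg adjusted p under 0.05). The IMS was higher in teratomas at 117 islands (0.881%), with a median difference of 1.16, and lower at 239 (1.80%), with a median difference of -1.19, where the median over all islands was 0.0356. All 356 had both teratoma arrays beyond all 5 differentiated arrays, as had 3052 of all islands (23.0%). The higher islands were mostly methylated in the body. Of the 117, 83 were among the 982 islands with an IMS above 0.75 on all 16 adult arrays (constitutively methylated), and 2 were among the 4446 with an IMS below 0 on all of them (constitutively unmethylated). Of the 239 lower islands, 1 was constitutively methylated, 31 were constitutively unmethylated and 207 were neither.

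At the called islands most means of the cultured cells lay outside adult tissue and most teratoma means did not. The teratoma mean fell inside the range of the 16 adult arrays at 223 of the 239 lower islands and at 89 of the 117 higher ones. The mean of the differentiated cells fell inside it at 52 and 33, and lay above all adult arrays at 187 of the lower islands and below all of them at 83 of the higher islands. The 5 arrays of whole embryos at midgestation were each of a different day of development, so their range spans several stages. The teratoma mean was inside this range at 131 of the lower and 54 of the higher islands, and the differentiated mean at 3 and 32. Over all islands, 93.4% of teratoma means and 82.3% of differentiated means lay inside the adult range, and 62.1% and 47.0% inside that of embryos. The teratoma share at lower islands (93.3% for adults) was thus that of all islands, and at higher islands (76.1%) it was below it. For the embryo range the teratoma shares at called islands (54.8% and 46.2%) were below that of all islands too.

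**Figure D1:**
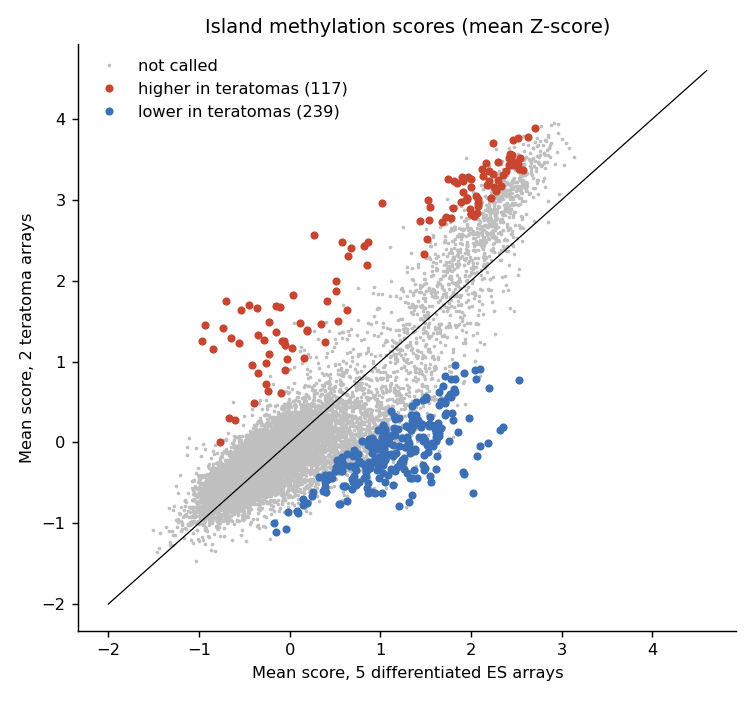
Mean IMS over the 2 teratoma arrays (vertical) against the mean over the 5 arrays of differentiated ES cells (horizontal) for 13282 islands, both as mean Z-scores, with the line of equality. The 239 islands lower in teratomas lie below the line, mostly at teratoma scores around 0, and most of the 117 higher ones lie at high scores, where the uncalled islands lie above the line too.

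The number of called islands depended on single arrays. It was 6 without teratoma 1 and 9 without teratoma 2 (the remaining teratoma array then being assumed to vary like the others), 218 without embryoid bodies, 128 without endoderm 2, 166 without mesoderm and 1379 without the retinoic acid array. With background correction by normexp it was 1 (584 at an unadjusted p under 0.05), while the t-test of the methods gave 3 after adjustment (1897 before it). Without division by the SD of the array 268 islands were called, 167 higher and 101 lower, so that 62.3% of the calls were higher, against 32.9% of the 356. In this setting, here and below, each array was also centred on its median in place of its mean. The part of each change was not tested. Among arrays of 1 software version (teratoma 1, assumed to vary like the cultures, against embryoid bodies, endoderm 2 and mesoderm) 618 islands were called, and among arrays of 1 probe grid (both teratomas against embryoid bodies and mesoderm) 1856, both without the retinoic acid array.

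Among the islands that were higher in teratomas, the largest difference was at Peg3, an imprinted gene. Peg3, a paternally expressed gene for a zinc finger protein, had an IMS of 1.61 and 1.88 in teratomas, -0.530 in embryoid bodies, -1.03 after retinoic acid, -0.973 and -0.601 in endoderm and -0.385 in mesoderm, and its island lies 22 bases from the start of the gene (chromosome 7, bases 6333486 to 6334587 by the probe names, whose build is not given). Both teratomas were far above all cultures, by 2.45 ± 0.209 (SE, limma, adjusted p = 0.00114), and below all adult arrays (1.95 to 3.07). An island inside Kcnq1, a potassium channel gene whose introns hold the control region of an imprinted cluster, had 1.57 and 1.70 in teratomas, -0.490 in embryoid bodies, -0.609 after retinoic acid, -0.344 and -0.388 in endoderm and -0.856 in mesoderm. The difference was 2.17 ± 0.176 (SE, limma, adjusted p = 0.000853), again with teratomas short of the adult range of 2.07 to 3.07. The undifferentiated ES arrays EB5 and TT2 were below 0 at both genes, like the differentiated ones, with -0.149 and -0.605 at Peg3 and -0.433 and -0.392 at Kcnq1.

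Zrsr1, a paternally expressed gene for a protein of the splicing machinery, had 1.01 and 1.29 in teratomas, -0.951 in embryoid bodies, -1.07 after retinoic acid, -1.24 and -0.374 in endoderm and -0.573 in mesoderm. Peg10, a paternally expressed gene of retrotransposon origin that the placenta needs, had 1.10 and 1.37 in teratomas, -0.704 in embryoid bodies, -0.794 after retinoic acid, -0.327 and -0.420 in endoderm and -0.534 in mesoderm. Mcts2, a paternally expressed retrogene inside H13, had 1.74 and 1.90 in teratomas, -0.334 in embryoid bodies, -0.0766 after retinoic acid, 0.699 and 0.155 in endoderm and -0.257 in mesoderm. In all 3 the teratomas stood apart from the 5 cultures, which lay at 0.699 or lower, and they lay below the adult minimum of 1.53, 1.50 and 2.10. The differences were 1.99 ± 0.240 (SE, limma, adjusted p = 0.00404), 1.79 ± 0.178 (SE, limma, adjusted p = 0.00210) and 1.79 ± 0.261 (SE, limma, adjusted p = 0.0102). The teratoma scores of about 1 to 2 may stand for any mixture of methylated and unmethylated molecules, and what share of them came from host cells was not tested.

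The promoters of Peg3, Zrsr1 and Mcts2 are shown as examples of islands that rose within 100 bases of the start of an imprinted gene, as the island of Peg10 also did, with Peg3 and Zrsr1 chosen for this after their values were seen. Each runs from 250 bases before to 50 after the start of the gene in RefSeq GRCm38.p6, with CpG dinucleotides in capitals. Peg3 (chr7:6730370-6730669, minus strand) holds 13 CpGs, Zrsr1 (chr11:22971755-22972054, plus strand) 10 and Mcts2 (chr2:152686898-152687197, plus strand) 25.
Peg3: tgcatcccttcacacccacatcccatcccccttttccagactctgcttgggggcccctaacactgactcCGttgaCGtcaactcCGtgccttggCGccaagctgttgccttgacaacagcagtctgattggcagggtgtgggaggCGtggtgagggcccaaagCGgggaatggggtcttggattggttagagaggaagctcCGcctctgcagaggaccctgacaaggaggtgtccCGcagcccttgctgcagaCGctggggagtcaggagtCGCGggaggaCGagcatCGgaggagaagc
Zrsr1: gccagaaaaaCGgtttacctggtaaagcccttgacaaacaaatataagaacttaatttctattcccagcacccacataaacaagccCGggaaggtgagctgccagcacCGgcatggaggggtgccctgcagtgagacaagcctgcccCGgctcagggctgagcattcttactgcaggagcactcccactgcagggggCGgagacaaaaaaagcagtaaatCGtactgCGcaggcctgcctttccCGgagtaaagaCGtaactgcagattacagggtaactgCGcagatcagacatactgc
Mcts2: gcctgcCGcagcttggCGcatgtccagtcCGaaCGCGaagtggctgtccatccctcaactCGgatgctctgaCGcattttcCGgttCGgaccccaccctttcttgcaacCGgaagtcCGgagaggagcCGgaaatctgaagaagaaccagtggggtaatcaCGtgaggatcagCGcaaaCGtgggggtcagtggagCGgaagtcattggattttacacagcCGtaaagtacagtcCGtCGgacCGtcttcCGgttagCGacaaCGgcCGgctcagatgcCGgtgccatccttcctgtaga

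Of the 55 imprinted genes listed, 36 were measured at 51 islands, of which 11 rose and 0 fell in teratomas (limma), where 0.881% of all islands rose and 1.80% fell, with a median difference of 0.177 against 0.0356 over all islands. The 11 were all among the 24 islands of the list that are constitutively methylated. Besides the 5 above they were islands of Grb10 (an adaptor of insulin receptor signalling), Gnas (2 islands; the alpha subunit of a stimulatory G protein), Plagl1 (a zinc finger transcription factor), Igf2r (the receptor that clears Igf2) and Inpp5f (an inositol phosphatase). Their differences ran from 1.12 (Gnas) to 2.45 (Peg3). Igf2r, for instance, had 1.22 and 1.77 in teratomas, -0.268 in embryoid bodies, -0.896 after retinoic acid, 0.223 and -0.131 in endoderm and -0.0375 in mesoderm. Grb10 had 1.19 and 1.34 in teratomas and -0.674 to 0.156 in the cultures, without overlap. In a fit over all 31 arrays, the array labelled J1 among them, Peg3, Kcnq1 and Inpp5f kept their calls, and the other 8 islands did not (adjusted p from 0.0575 at Peg10 to 0.185 at Gnas). In a fit over 30 arrays without it, all 5 described first kept theirs.

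Over the 24 constitutively methylated islands of imprinted genes, the mean IMS was 1.74 and 1.99 in teratomas, 0.747 in embryoid bodies, 0.635 after retinoic acid, 0.744 and 0.870 in endoderm and 0.769 in mesoderm, and 2.03 to 2.90 in adult arrays. Teratomas thus lay between the cultures and adult tissue, and their mean was below all adult arrays at 15 of the 24 islands, including all 11 that were called. The 5 cultures lay close together on this measure, and EB5 and TT2 before differentiation had 0.843 and 0.630. Beside this, the 958 other constitutively methylated islands had a median difference of 0.565, with 72 called higher and 1 lower, and there the teratoma mean was below all adult arrays at 18. The 27 islands of imprinted genes outside that class gave 0 calls (limma; the smallest unadjusted p was 0.00840) and a median difference of 0.0215.

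The imprinted islands were not uniform. Mest, a paternally expressed hydrolase gene, had 1.58 and 2.44 in teratomas, 0.808 in embryoid bodies, 1.20 after retinoic acid, 0.280 and -0.0602 in endoderm and 0.449 in mesoderm, with no overlap but an adjusted p of 0.0506. Peg12 (1.05 and 1.91 against -0.541 to 0.681), Nnat (1.89 and 1.92 against 0.00254 to 1.28) and Cdkn1c (2.03 and 2.38 against 0.280 to 1.91) were not called either. At Nap1l5 the EB5-derived cells were as high as the teratomas and the TT2-derived cells were not, with 1.61 and 1.71 in teratomas, 0.234 in embryoid bodies, -0.805 after retinoic acid, 1.76 and 2.01 in endoderm and 1.72 in mesoderm. At Dlk1, an inhibitor of Notch signalling, and at Usp29, both groups were high, with 1.95 and 1.93 in teratomas against 1.99 to 3.03 for Dlk1, and 2.33 and 2.48 against 1.71 to 3.22 for Usp29.

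**Figure D2:**
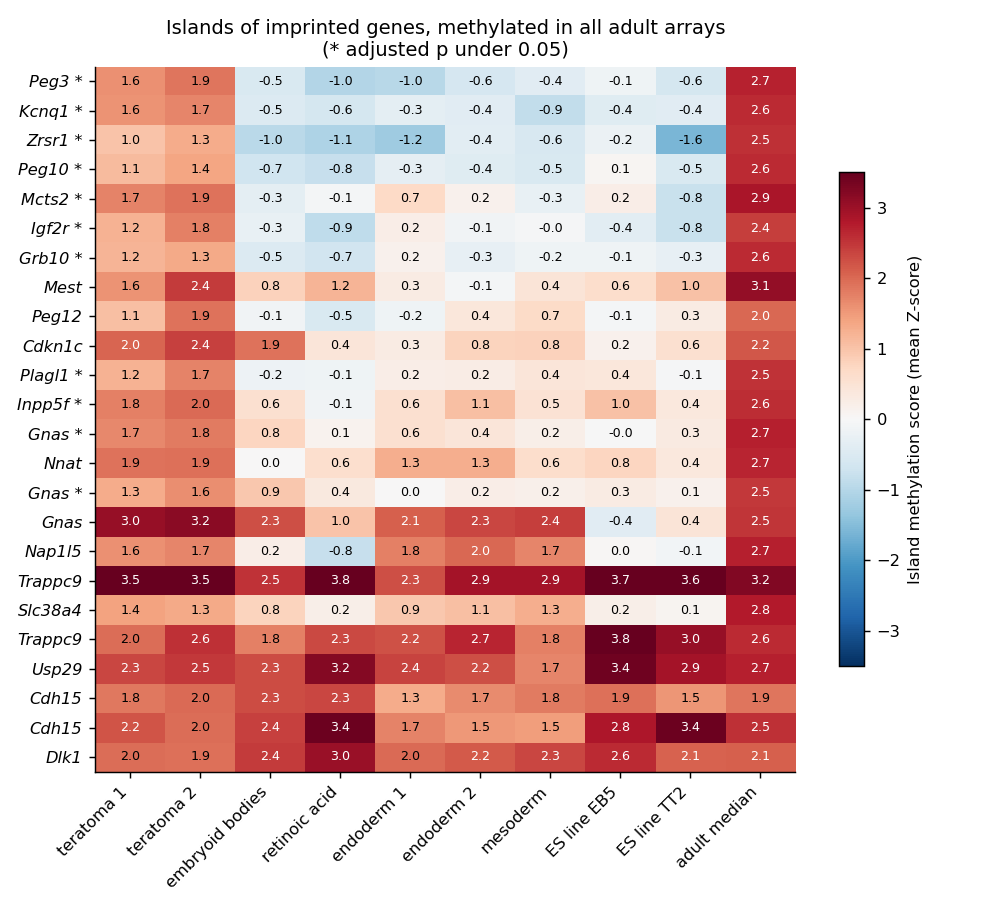
IMS (colour and printed value, mean Z-score) of the 24 islands of imprinted genes that are methylated on all adult arrays, for the 7 arrays compared, the undifferentiated ES lines EB5 and TT2, and the median of 16 adult arrays; asterisks mark the 11 islands with an adjusted p under 0.05. The called islands are between 1.01 and 1.98 in teratomas and mostly around 0 in the cultures.

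Islands of the Hoxa and Hoxb clusters formed another group of higher islands. An island that the files name for Hoxa2 and its divergent neighbour 5730596B20Rik had 1.42 and 1.40 in teratomas, -0.613 in embryoid bodies, -0.761 after retinoic acid, -0.679 and -0.939 in endoderm and -0.674 in mesoderm, a difference of 2.14 ± 0.151 (SE, limma, adjusted p = 0.000477). An island at the promoter of 5730596B20Rik had 1.80 and 1.12 in teratomas, -1.85 in embryoid bodies, -0.430 after retinoic acid, 0.0283 and -1.36 in endoderm and -1.04 in mesoderm, with a difference of 2.39 ± 0.439 (SE, limma, adjusted p = 0.0250). Hoxa5, which patterns the neck and chest region, had 1.69 and 1.66 against -0.322 to 0.496, and 3 islands of Hoxb3 rose, the one with the largest difference having 1.95 and 1.39 in teratomas, -0.519 in embryoid bodies, -0.0269 after retinoic acid, -0.454 and -0.311 in endoderm and -0.463 in mesoderm. In each of these all cultures lay below both teratomas, while adult arrays spread widely, from -0.173 to 2.94 at that Hoxb3 island. Replicates of 1 tissue disagreed in part. At the promoter island of 5730596B20Rik the highest adult arrays were kidney 1 (3.22) and spleen 2 (3.01), where kidney 2 and spleen 1 had 0.344 and 0.497. Whether adult arrays were exchanged was not tested. At that Hoxb3 island kidney 1 and spleen 2 had 2.88 and 2.94, and kidney 2 and spleen 1 had 1.94 and 1.70. Embryo arrays had -0.597 to 0.0819 there, so the teratomas were above all embryos.

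The promoter of 5730596B20Rik is given because the files annotate its island as a promoter, although the island lies at -1283 bases, before the start and outside the printed bases. It comes from the same RefSeq GRCm38.p6 table (chr6:52176905-52177204, plus strand), has its CpGs in capitals and holds 7 of them.
5730596B20Rik: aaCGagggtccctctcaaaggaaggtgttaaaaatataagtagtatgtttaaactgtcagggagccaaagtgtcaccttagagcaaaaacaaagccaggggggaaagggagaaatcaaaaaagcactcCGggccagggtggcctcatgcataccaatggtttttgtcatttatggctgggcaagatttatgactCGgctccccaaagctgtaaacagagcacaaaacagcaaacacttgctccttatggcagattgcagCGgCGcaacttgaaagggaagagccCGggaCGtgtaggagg

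Calls within Hox clusters went both ways. Of 62 islands named for a Hox gene alone, 4 rose (3 at Hoxb3 and 1 at Hoxa5) and 2 fell, where 0.881% of all islands rose and 1.80% fell, and the median difference was 0.0218. The higher islands whose names in the files hold 5730596B20Rik are not in this count. The 2 that fell were near Hoxa7 (-0.384 and -0.316 against 0.174 to 0.699; adjusted p = 0.0393, and 0.0633 without division by the SD of the array) and inside Hoxd12 (0.0167 and -0.0249 against 1.30 to 2.07; adjusted p = 0.00564). In the limma fit over all 31 arrays, the array labelled J1 among them, 3 of the 6 calls were kept. The call at Hoxd12 was not (adjusted p = 0.0871). With calls within 100000 bases joined, the 4 higher islands from Hoxa2 to Hoxa5 and the lower one at Hoxa7 formed 1 stretch, and the 3 islands of Hoxb3 another.

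The other named islands that rose were Agap2, Zfp467, Tpp1 and Sh2d3c. At Agap2, which encodes a GTPase-activating protein of neurons, the IMS was 2.00 and 1.40 in teratomas, -0.448 in embryoid bodies, -0.133 after retinoic acid, -0.309 and -0.718 in endoderm and -0.607 in mesoderm, and at Sh2d3c, an adaptor protein gene, 1.67 and 1.72 against -0.390 to 0.200. The differences were 2.14 ± 0.216 (SE, limma, adjusted p = 0.00217) and 1.84 ± 0.179 (SE, limma, adjusted p = 0.00210), and the teratomas lay inside a wide adult range at both genes. Kidney 1 and spleen 2 were again its highest arrays, above kidney 2 and spleen 1. Zfp467, a zinc finger gene, had 2.86 and 3.06 against 0.498 to 1.42, and Tpp1, which encodes a lysosomal peptidase, 2.30 and 2.65 against 0.00630 to 1.11. These 2 are constitutively methylated, and teratomas reached the adult range (2.75 to 4.10 and 1.63 to 3.85) while embryos did not exceed 2.51 and 2.04. In embryos both scores rose with age, from 0.396 (Zfp467) and 0.330 (Tpp1) in the youngest to these maxima in the oldest.

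Islands of many kinds of genes were lower in teratomas. Barhl1, a homeobox gene of the hindbrain and inner ear, had -0.497 and -0.283 in teratomas, 2.04 in embryoid bodies, 1.81 after retinoic acid, 1.84 and 1.92 in endoderm and 2.00 in mesoderm at an island inside the gene (chromosome 2, bases 28733341 to 28734075 in the files). The cultures were nearly alike and far above both teratomas, with a difference of -2.31 ± 0.151 (SE, limma, adjusted p = 0.000456), and they were above all adult arrays, whose highest was 1.11. Undifferentiated EB5 and TT2 cells were already high, with 1.91 and 1.50. Slitrk1, a membrane protein of neurons, had -0.345 and -0.383 in teratomas, 1.85 in embryoid bodies, 1.79 after retinoic acid, 2.02 and 2.24 in endoderm and 1.66 in mesoderm, with 1.84 and 1.89 in the undifferentiated lines and a difference of -2.28 ± 0.181 (SE, limma, adjusted p = 0.000853).

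Lbx1, a homeobox gene of muscle precursors and spinal cord neurons, had -0.440 and -0.540 in teratomas, 1.57 in embryoid bodies, 1.16 after retinoic acid, 2.09 and 1.60 in endoderm and 1.39 in mesoderm, a difference of -2.05 ± 0.229 (SE, limma, adjusted p = 0.00299). Tfap2e, of the AP-2 transcription factors, had -0.285 and 0.195 in teratomas against 1.64 to 2.61 in the cultures (adjusted p = 0.00309). Mmp9, a protease of the extracellular matrix, had -0.0384 and -0.296 in teratomas, 2.34 in embryoid bodies, 2.30 after retinoic acid, 2.09 and 2.13 in endoderm and 1.49 in mesoderm. For all 3 the teratomas lay inside the adult range and no culture came near them. The difference at Mmp9 was -2.24 ± 0.231 (SE, limma, adjusted p = 0.00217). C2cd4c (0.133 and 0.240 against 1.91 to 2.75), D11Bwg0517e (0.0103 and -0.0315 against 1.76 to 2.66) and Cilp2, a protein of cartilage matrix (0.0350 and 0.274 against 1.57 to 2.78), followed the same pattern. Without division by the SD of the array, the adjusted p of Cilp2 was 0.0580.

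Of the named islands that fell, 4 were constitutively unmethylated. Dlx4, a homeobox gene of the Distal-less family, had -0.473 and -0.398 in teratomas, 1.56 in embryoid bodies, 1.57 after retinoic acid, 1.53 and 1.17 in endoderm and 1.19 in mesoderm, where the highest adult array had -0.108. Rem1, a small GTPase gene, had -0.639 and -0.935 in teratomas, 1.68 in embryoid bodies, 1.30 after retinoic acid, 0.813 and 1.16 in endoderm and 1.06 in mesoderm, and Ptger4, a receptor for prostaglandin E2, -0.689 and -0.774 in teratomas, 2.11 in embryoid bodies, 1.64 after retinoic acid, 1.40 and 0.842 in endoderm and 0.617 in mesoderm. All 5 cultures were above 0 at these 3 genes and both teratomas below, as all adult arrays are by the definition of the class. The differences were -1.84 ± 0.175 (SE, limma, adjusted p = 0.00210), -1.99 ± 0.224 (SE, limma, adjusted p = 0.00299) and -2.05 ± 0.349 (SE, limma, adjusted p = 0.0172). At Ski, a proto-oncogene that dampens TGF-beta signalling, 4 cultures were high and the retinoic acid array was not, with -0.585 and -0.717 in teratomas, 1.85 in embryoid bodies, -0.0252 after retinoic acid, 1.40 and 1.88 in endoderm and 1.65 in mesoderm. Its difference of -2.0 ± 0.445 (SE, limma, adjusted p = 0.0474) lost its call without division by the SD of the array (adjusted p = 0.0623) and with dim probes left out (0.0539). The call was also lost without any 1 array other than retinoic acid (adjusted p from 0.0727 without endoderm 1 to 0.375 without teratoma 2). Against TT2-derived cells alone the adjusted p was 0.182.

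The promoters of Rem1 (island 59 bases from the start, chosen after its values were seen) and Cilp2 (island annotated as a promoter in the files, at -1449 bases, before the start and outside the printed bases) are given in the same way from RefSeq GRCm38.p6, with CpGs in capitals. Rem1 (chr2:152626758-152627057, plus strand) holds 24 CpGs and Cilp2 (chr8:69887343-69887642, minus strand) 18.
Rem1: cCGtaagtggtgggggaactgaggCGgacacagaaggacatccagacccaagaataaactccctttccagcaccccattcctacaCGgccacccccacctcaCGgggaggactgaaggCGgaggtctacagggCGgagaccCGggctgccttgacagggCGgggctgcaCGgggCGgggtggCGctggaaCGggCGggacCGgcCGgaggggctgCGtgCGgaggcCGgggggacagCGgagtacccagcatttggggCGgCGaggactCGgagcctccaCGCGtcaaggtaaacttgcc
Cilp2: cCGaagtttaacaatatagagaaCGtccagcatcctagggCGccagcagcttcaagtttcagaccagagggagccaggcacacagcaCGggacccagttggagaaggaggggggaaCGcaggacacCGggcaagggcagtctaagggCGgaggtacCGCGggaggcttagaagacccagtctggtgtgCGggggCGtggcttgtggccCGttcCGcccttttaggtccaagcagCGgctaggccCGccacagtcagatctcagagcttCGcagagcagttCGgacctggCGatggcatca

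**Figure D3:**
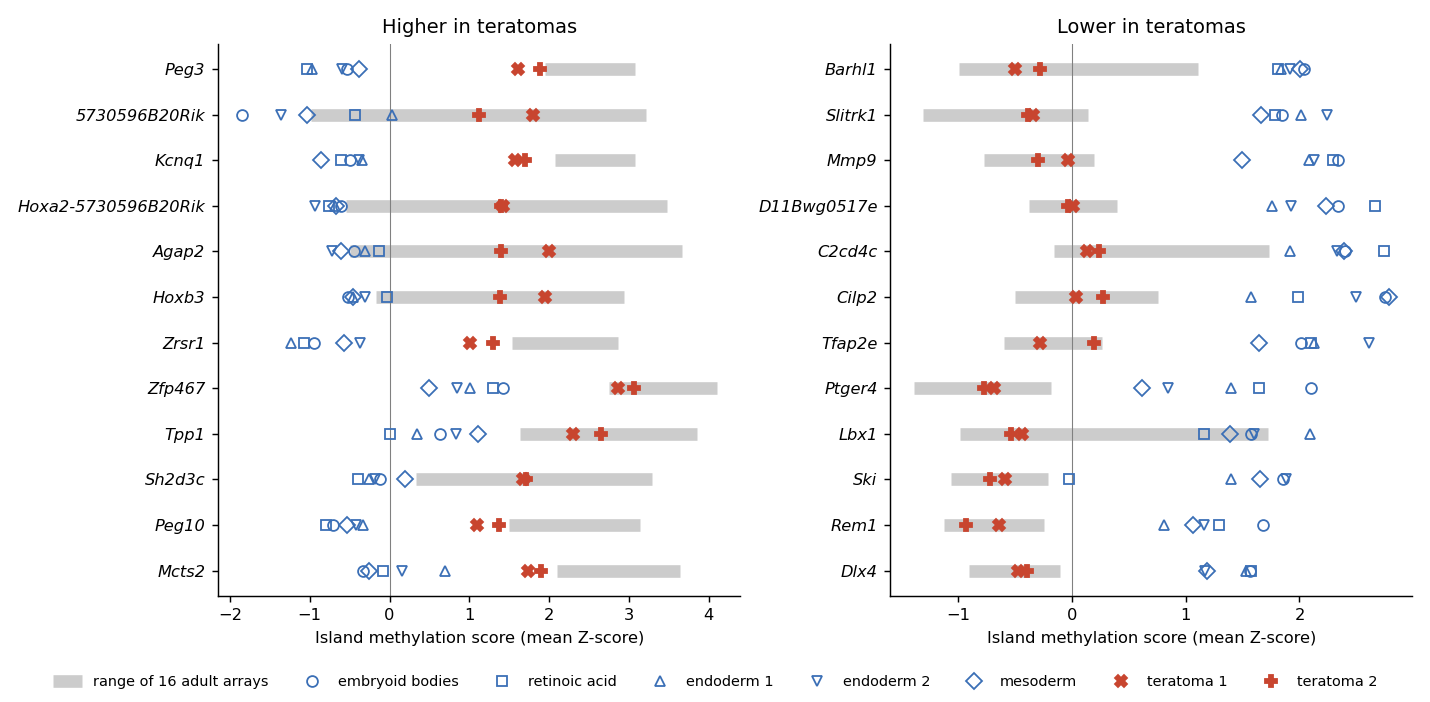
IMS (mean Z-score, horizontal) of the 24 named islands, 12 with the largest difference in each direction, in the 2 teratoma arrays (filled) and the 5 arrays of differentiated ES cells (open); grey bars span the 16 adult arrays. The islands were chosen to have no overlap between the groups. Most teratoma values on the right lie within the grey bars.

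Without teratoma 1, 5 of the 24 kept an adjusted p under 0.05, and without teratoma 2, 7. Without any 1 of the cultures, 22 to 24 did. Against the TT2-derived arrays alone, all except Ski had an adjusted p under 0.05. In fits over all 31 arrays, the array labelled J1 among them, 20 of the 24 kept their calls without a block, 18 with slide as a random block and 11 with software version as a fixed block, and over 30 arrays without it all 24 did. Among the 7 arrays, 2 kept them with the methods' t-test after adjustment and 0 after normexp (limma).

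Homeobox and Pax genes outside the Hox clusters had 24 called islands of 242, of which 23 fell in teratomas and 1 rose, beside 239 lower and 117 higher among all 13282. The list's median difference was -0.0835, and 62 of its islands had an unadjusted p under 0.05, beside 2237 of all 13282. The groups did not overlap at 55 islands lower and 18 higher in teratomas, beside 1528 and 1524 of all islands. Of the 24 calls 15 were kept without division by the SD of the array, and then 18 islands of the list were called (7.44%, against 2.02% of all islands). Several genes gave more than 1 island. Barhl1 and Irx4, a homeobox gene of the heart ventricles, had 3 each, all lower, and Lhx3 (pituitary and motor neurons) and Nkx2-5 (heart) had 2 each. Irx4 had -0.516 and -0.373 in teratomas against 0.727 to 1.30 at the island with the smallest p. Phox2a, which autonomic neurons need, had -0.325 and -0.385 against 0.921 to 1.42. Lhx6, of cortical interneurons, was the member that rose, with 0.268 and 0.343 against -0.793 to -0.498.

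Factors of other families were called at few islands. Of 63 islands of Sox, Gata and T-box genes 3 fell and 1 rose (6.35% called, against 2.68% of all islands). Gata4, a factor of heart and endoderm, had -0.229 and -0.455 against 1.01 to 1.81, and Tbr1, of cortical neurons, 0.722 and 1.10 against 1.62 to 2.36. Gata3, of T cells and kidney, rose, with 1.78 and 1.50 against 0.264 to 1.07 (adjusted p = 0.0478). Of 57 Forkhead islands (7.02% called) 3 fell, at Foxa1 (endoderm), Foxj1 (ciliated cells) and Foxf1 (visceral mesoderm), and 1 inside Foxo3 rose. Foxa1 had -0.187 and -0.464 in teratomas, 0.671 in embryoid bodies, 1.78 after retinoic acid, 1.32 and 1.66 in endoderm and 0.884 in mesoderm, low in teratomas and positive in every culture, the 2 endoderm arrays included. The calls at Tbr1 (adjusted p = 0.207), Foxj1 (0.0520), Foxf1 (0.0788) and Foxo3 (0.0508) were lost without division by the SD of the array, where 1 Forkhead island (1.75%) and 2 Sox, Gata and T-box islands (3.17%) were called, against 2.02% of all islands. In the limma fit over all 31 arrays, the array labelled J1 among them, Gata3 (adjusted p = 0.141) and Foxo3 (0.114) lost theirs.

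Constitutively unmethylated islands set the groups apart by number. Of 4446 such islands, those with an IMS above 0.75 numbered 3 and 4 in teratomas, 62 in embryoid bodies, 21 after retinoic acid, 82 and 67 in endoderm and 56 in mesoderm. Both teratomas lay below all cultures (difference -54.1; exact permutation, two-sided p = 0.0952, the lowest within reach of 2 arrays against 5, so that 0.05 could not be met). Embryos had 0 to 2 and undifferentiated EB5 and TT2 5 and 12, so the teratomas were nearer to these than to the cultures. Within arrays of 1 software version the difference was -58.7, and within 1 probe grid -55.5. It was -6.30 when such islands had to lie below -0.25 in adults (1105 islands), and -151 with a limit of 0.25 (7987 islands).

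Few of these islands were shared by all 5 cultures, and more by some of them. Both endoderm arrays shared 48, and embryoid bodies and mesoderm shared 39, of which 23 were among the 48. Of 129 above 0.75 on any culture, 4 were so on all 5, those at Dlx4, Rem1 and Slc32a1 among them. Slc32a1, the vesicular transporter of GABA and glycine, had 0.240 and 0.0137 in teratomas, 2.44 in embryoid bodies, 2.66 after retinoic acid, 1.42 and 1.52 in endoderm and 1.26 in mesoderm. On both teratomas 1 island was above 0.75, at the start of Atf4, a stress-response transcription factor, with 1.43 and 1.33 in teratomas, -0.728 in embryoid bodies, -0.458 after retinoic acid, 0.951 and 1.27 in endoderm and 1.11 in mesoderm. It was not called, since the EB5-derived cultures were high there and the TT2-derived ones were not. On 1 teratoma array only, Ercc3, Api5, Klhl9, Zfp709 and Myd88 passed the limit. Api5, an inhibitor of apoptosis, was called higher in teratomas (0.789 and 0.659 against -0.427 to 0.0203; adjusted p = 0.0168). These genes were named after their values were seen.

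Constitutively unmethylated islands with high scores in endoderm were followed in the other arrays. Of the constitutively unmethylated islands, 63 had a mean above 0.75 on the 2 endoderm arrays, which chose them (mean 1.14 and 1.13). A gain over the parent line was not required, and 5 of the 63 were above 0.75 in undifferentiated EB5. The mean IMS of the 63 was -0.216 and -0.311 in teratomas, 0.795 in embryoid bodies, 0.191 after retinoic acid and 0.890 in mesoderm. Teratomas were lower than all 3 cultures that had no part in the choice, with a difference of -0.889 (exact permutation, two-sided p = 0.2, the lowest within reach of 2 arrays against 3, so that 0.05 could not be met). Of the 63, 22 fell in teratomas in the fit over all islands, beside 31 of the 4446, but the endoderm arrays that chose them are part of that fit. In adult arrays, which had to be below 0 at each of these islands by the choice, the mean was -0.604 to -0.316, below both teratomas. Among the cultures, retinoic acid treated cells came closest to the teratomas. Undifferentiated EB5 (-0.0237) and TT2 (0.0221) were closer than these.

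Constitutively methylated islands were higher in teratomas. Their mean IMS over 982 islands was 2.57 and 2.69 in teratomas, 2.16 in embryoid bodies, 2.46 after retinoic acid, 1.81 and 2.06 in endoderm and 1.91 in mesoderm. The difference of 0.554 (exact permutation, two-sided p = 0.0952, again the lowest within reach) put the teratomas inside the adult range of 2.27 to 2.86 and all cultures except retinoic acid below it. Below an IMS of 0.75 were 3 and 2 of the 982 islands in teratomas and 25 to 42 in the cultures, and embryos had 23 to 54, like the cultures, against 168 in undifferentiated EB5 and 134 in TT2. The difference was 1.07 with Z-scores from the median and MAD and 1.33 after normexp, and within 1 probe grid it was 0.599. The part of the spread of an array in this measure was not tested.

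**Figure D4:**
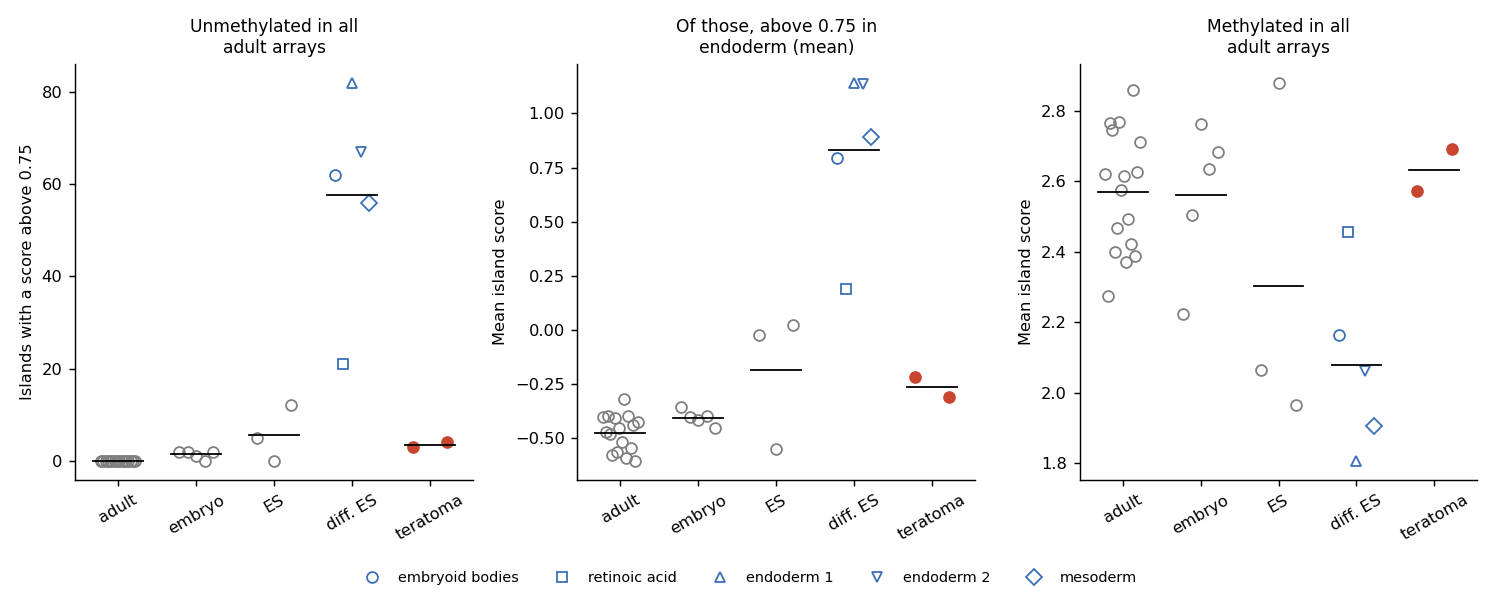
Left, number of constitutively unmethylated islands with an IMS above 0.75; middle, mean IMS (Z-score) of the 63 of them above 0.75 in the endoderm mean, which the endoderm arrays chose; right, mean IMS of 982 constitutively methylated islands. Each point is 1 array, lines are group means, and undifferentiated ES cells include the array labelled J1 (0 islands, -0.551 and 2.88). Teratomas (3 and 4 islands, -0.216 and -0.311, 2.57 and 2.69) lie outside the differentiated cultures in all 3 panels. They are slightly above embryos in the left and middle ones. In the right one they lie among adult tissue and embryos, where retinoic acid (2.46) also lies. Adult arrays chose the islands of the left and middle panels by scores below 0, so their lower position there follows from the choice.

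Splitting the cultures by parent line gave calls on both sides. Teratomas differed from the EB5-derived arrays (endoderm and mesoderm) at 1007 islands (7.58%; limma), 378 higher and 629 lower, and from the TT2-derived arrays (embryoid bodies and retinoic acid) at 223 (1.68%), 62 higher and 161 lower. These comparisons share the teratoma arrays and have unlike numbers of cultures, and the difference between them was not tested. At Peg3 the difference was 2.40 against EB5-derived and 2.53 against TT2-derived cells, at Kcnq1 2.16 and 2.18, and at Barhl1 -2.31 and -2.31, each with an adjusted p under 0.05. The EB5 count was 0 without teratoma 1 and 0 without teratoma 2 (limma; 1618 and 1899 at an unadjusted p under 0.05) and 231 without endoderm 2. The TT2 count was 25 without teratoma 1, 26 without teratoma 2, 360 without retinoic acid, 344 without endoderm 1 and 108 without endoderm 2, the last 2 entering through the shared estimate of the spread.

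Against endoderm alone, a sorted population, 1354 islands differed (10.2%; limma), 510 higher and 844 lower. Peg3 was 2.53 higher and Foxa1, a gene of endoderm itself, had a difference of -1.82 (adjusted p = 0.00446). Without teratoma 1 the count was 268, without teratoma 2 301 and without endoderm 2 3483. Without division by the SD of the array it was 266, and 165 of these, or 62.0%, were higher, against 37.7% of the 1354.

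Lists of lineage genes held lower islands, where 1.80% of all islands were lower and 0.881% higher. Of 50 islands of neural bHLH and neuronal genes, 5 fell in teratomas, with a median difference of -0.339. They lie at Slc17a7 (a vesicular glutamate transporter; 0.0579 and 0.0743 against 1.34 to 1.85), Slc6a5 (a glycine transporter; 0.126 and -0.0877 against 1.09 to 1.71), Sim2 (a midline factor) and Slc32a1 (2 islands). Of 37 islands of mesoderm, muscle and heart genes, 4 fell (median -0.284), at Nkx2-5 (2 islands), Tcf21, a factor of heart and kidney stroma, and Des, the muscle filament desmin (0.468 and 0.449 against 1.41 to 2.15). Of 45 endoderm and liver islands, 2 fell, at Gata4 and Foxa1 (median -0.0356), and of 30 of cartilage, bone, skin and fat, 1 fell, at Comp, a cartilage matrix protein (0.151 and 0.217 against 1.20 to 2.25; median -0.144). These last lists hold only 2 and 1 calls. The calls at Sim2 (adjusted p = 0.109), Slc32a1 (0.0511 and 0.0873), Des (0.132), Comp (0.0761) and 1 island of Nkx2-5 (0.0621) were lost without division by the SD of the array.

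Genes of host blood and endothelium were listed because a teratoma can hold such cells. Of their 37 islands, 1 rose and 2 fell, beside 0.881% and 1.80% of all islands, with a median difference of -0.109 that was 0.00641 without division by the SD of the array. Gfi1, a factor of blood cells, rose (1.07 and 0.894 against -0.655 to 0.0835), and Runx3, of T cells and neurons, and Esam, of endothelial junctions, fell (-0.0753 and 0.0817 against 0.641 to 1.27, and -0.578 and -0.325 against 0.332 to 1.07). Runx3 lost its call without that division (adjusted p = 0.0866). Gfi1 lost its call in the limma fit over all 31 arrays, the array labelled J1 among them (adjusted p = 0.173). The mean IMS of the list was 0.450 and 0.459 in teratomas, 0.485 in embryoid bodies, 0.627 after retinoic acid, 0.470 and 0.498 in endoderm and 0.444 in mesoderm, and 0.300 to 0.872 in adult arrays. How many host cells the teratomas held was not tested.

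In the remaining lists 0 to 2 islands were called, beside 2.68% of all islands. Pluripotency genes gave 0 calls in 38 islands (limma; median 0.139), germline genes 0 in 36 (median 0.375) and clustered protocadherins 0 in 12 (median 0.278), with 4, 15 and 4 islands at an unadjusted p under 0.05, beside 2237 of all 13282. Without division by the SD of the array, the medians were 0.226, 1.02 and 1.08, and 2 germline islands were called. Of the 36 germline islands, 22 were constitutively methylated and 4 constitutively unmethylated. Their median score was 1.81 in teratomas and 1.54 in the cultures. Stk31, a testis kinase (3.09 and 3.28 against 1.30 to 2.47), and Msh4, of meiotic recombination (2.69 and 3.16 against 1.46 to 2.34), were high in both groups. Ribosomal protein genes had 1 call in 62 (lower, at Rpl22; median 0.117), Wnt and BMP genes 1 in each direction in 112 (Acvr2b higher, Gdf7 lower; median -0.0374), and genes of the DNA methylation machinery 1 in each direction in 39 (Mbd3 higher, Cbx8 lower; median 0.0969). Without division by the SD of the array, the medians of the Wnt and BMP list (0.00593) and of Sox, Gata and T-box genes (0.00884, against -0.0241) changed sign, and the calls at Rpl22, Gdf7 and Cbx8 were lost (adjusted p = 0.0633, 0.0924 and 0.0621).

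**Figure D5:**
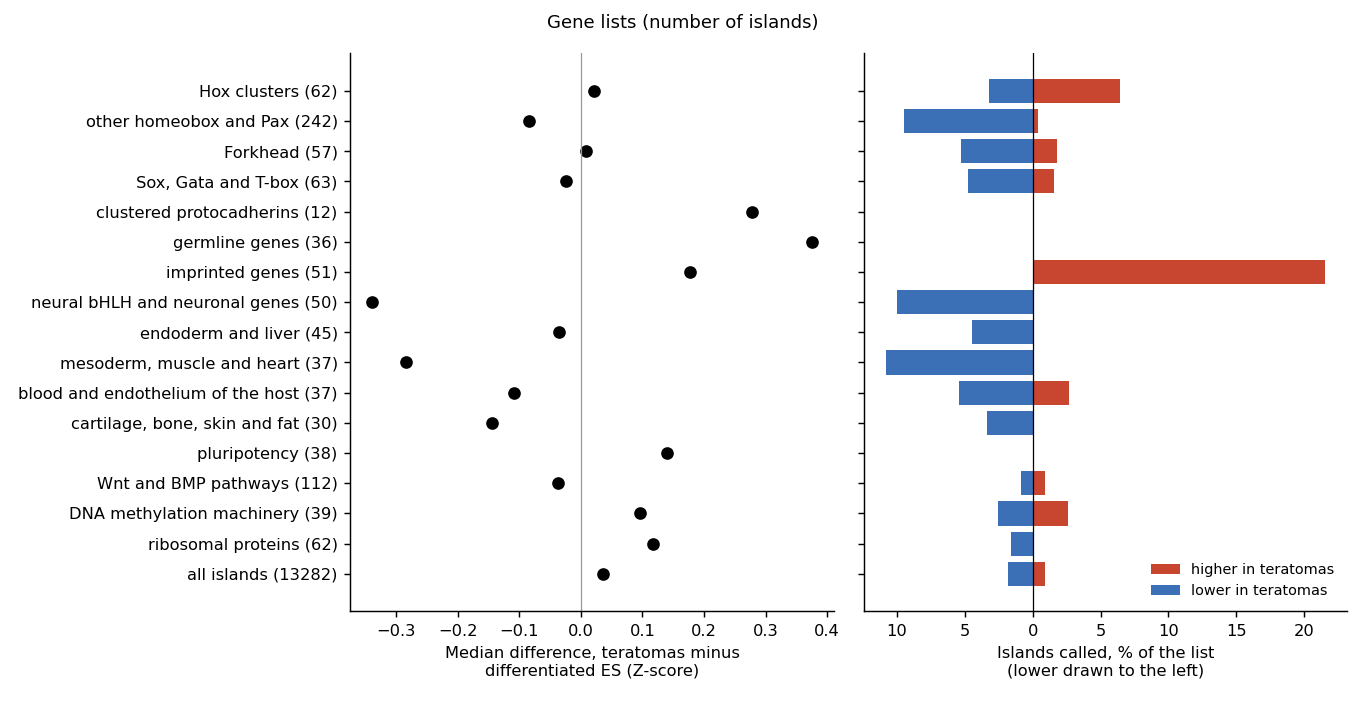
Left, median difference in IMS (Z-score, teratomas minus differentiated ES cells) over the islands of each list, with all islands at the bottom; right, percentage of the islands of each list called higher (to the right) or lower (to the left), with numbers of islands in brackets. Imprinted genes have the largest share of higher islands among the lists (11 of 51), and neural genes, mesoderm genes and homeobox genes outside the Hox clusters have lower islands and at most 1 higher.

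Islands that mark single adult tissues were found for colon and pancreas only. The 2 arrays of colon and the 2 of pancreas were all on 1 probe grid. Each other tissue had its 2 replicates on different grids, and what this did to the search was not tested. Replicates of kidney and of spleen disagreed at some islands. At Agap2, kidney 1 and spleen 2 had 3.66 and 3.30, and kidney 2 and spleen 1 had 0.775 and 1.02. What this did to the search for islands of kidney or spleen was not tested. At 56 islands higher in colon than in the 7 other tissues by at least 0.5, the teratoma means were -0.0866 and 0.00224, those of the cultures 0.298 to 0.521 and that of colon 1.43. At the 7 of pancreas, teratomas had 0.123 and 0.225, cultures 0.924 to 1.17 and pancreas 2.18. Of these islands 6 and 4 fell in teratomas, and 0 rose (limma), where 1.80% of all islands fell and 0.881% rose. The mean of the remaining adult tissues was 0.00340 at the colon islands, near the teratomas, and 0.562 at the pancreas islands, between teratomas and cultures.

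Called islands were spread over the autosomes, with the highest share on chromosomes 11 (4.02% of 1170 islands) and 2 (3.99% of 1128) and a low share on chromosome 16 (0.485% of 412). The most called islands joined within 100000 bases were 5, in the Hoxa stretch and in a run of 5 lower islands at Grin2c (a glutamate receptor subunit), Ush1g and Otop3 (genes of the inner ear) on chromosome 11. By the annotation in the files, 81 higher and 144 lower islands of 8195 lay inside a gene, 11 and 31 of 2504 at a promoter, 2 and 2 of 417 at a divergent promoter, 5 and 21 of 417 downstream of a gene and 18 and 41 of 1749 were not annotated.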

How the data were processed

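Per the file headers, the authors scanned each 2-colour array with Agilent Feature Extraction, which gave spot and background intensity, subtracted background, applied linear dye normalisation and wrote the log10 ratio of bound (Cy5) over input (Cy3). The deposited table holds a score for each probe, which the authors made from these ratios as a Z-score that depends on the melting temperature of the probe. From the scanner files of 31 mouse arrays, control probes and probes with outlier marks were dropped, and the log10 ratio was turned into a Z-score within each array (mean 0, SD 1). Probes on every array (88737) at most 500 bases apart were joined into islands of at least 3 probes, chromosomes X and Y were dropped, and names in the files were matched to RefSeq symbols (8987 islands directly, 2017 through a synonym, 555 kept as written). The 379 probes without coordinates were not used.

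The 7 arrays were fitted by limma 3.58.1 (R 4.3.3; moderated t, Benjamini-Hochberg) over 13282 islands, parent lines had a fit with 3 groups, and endoderm one with 4 arrays. Python 3.11.15 with numpy 2.4.6, pandas 2.3.3, scipy 1.17.1 and matplotlib 3.10.9 did the rest. Values per array were compared by exact permutation of group labels. The named genes are the islands with a gene name, an adjusted p under 0.05 and no overlap between groups, the 12 largest differences in each direction, 1 island per gene. For each gene list, members called, and the 3 with the largest moderated t, could be named. Promoters of 300 bases came from the RefSeq GRCm38.p6 table, for named genes whose island is annotated as a promoter, and for 3 others with an island within 100 bases of the start. Members and lists were chosen with earlier results of these data known. The scripts for the fits were tested on simulated data. Alternatives covered scaling, background correction, probe filters, island rules, arrays left out, blocks for slide, software and grid, and the t-test with equal variance that the methods name. Human arrays were not used.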

Additional observations from a re-analysis of the deposited data

Results flagged for a closer look

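At Ski, the retinoic acid array (-0.0252) lay far below the other 4 cultures, the nearest of which had 1.40. Its gap to that value was 0.745 of the whole range of the 5 cultures, above Dixon's critical value of 0.71 for 5 samples. Of 30 groups of 5 tested in this way, 1 passed the critical value, and chance gives about 1 in 20 groups that were not chosen by their values. Most of the 30 were the named islands, chosen by their differences, so that rate need not hold for them.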

How the results depend on the processing

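None of the 356 called islands had overlap between groups, so arrays left out could not turn their direction. With other scalings, probe filters or background correction none that was present turned either (188 of the 356 were present in the deposited table, 198 with at least 5 probes and 283 with dim probes left out). The medians of 3 gene lists changed sign without division by the SD of the array, a setting that also centred each array on its median. The count of 356 stayed within 1.5 times under 10 alternatives (258 to 470), but the deposited table gave 357 of only 6572 islands, 174 of them among the 356. It moved to 1 after normexp on the median signals (584 at an unadjusted p under 0.05), 771 with all 31 arrays in the fit, 718 with slide as a random block, 215 with software version as a fixed block, 1153 with grid as a fixed block, 618 within 1 software version, 1856 within 1 grid, 1018 with 30 arrays and 3 with the methods' t-test (1897 at an unadjusted p under 0.05); without 1 array it was 6 to 1379. The counts were 0 to 1410 (EB5-derived), 25 to 360 (TT2-derived) and 268 to 3483 (endoderm) without 1 array, where a lone sample was assumed to vary like the others; both counts of 0 came from limma, with 1618 and 1899 islands at an unadjusted p under 0.05. Without division by the SD of the array the TT2 count was 100 and the endoderm count 266. That setting also moved the split of higher and lower calls from 117 and 239 to 167 and 101 (main comparison), from 378 and 629 to 643 and 266 (EB5), from 62 and 161 to 40 and 60 (TT2) and from 510 and 844 to 165 and 101 (endoderm), and the median and MAD moved the main split to 234 and 236. The cause was not tested.

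The number of unmethylated islands above 0.75 kept its direction in 16 alternatives (-151 to -6.3), the level of those above 0.75 in endoderm in 13 (-1.22 to -0.809) and that of methylated islands in 13 (0.531 to 1.33), and all 3 did without any 1 array (-63.2 to -48, -1.11 to -0.725 and 0.487 to 0.649). Teratoma and endoderm arrays share replicate numbers only: same-numbered arrays deviated from their group means with r = -0.0452, and with the replicate number as a block the endoderm count was 1832.

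Normexp on mean signals was not run, since the files lack them for some arrays, and scan day as a block could not be estimated. The alternatives with median signals, the smaller grid, zero ratios left out, 1 software version, 1 grid and 30 arrays were chosen after the data were seen. The bound signal lay 1.93 to 3.54 times over background, which limits what is seen at islands with little bound DNA.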

Other observations

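The islands called between teratomas and cultures were also read on the undifferentiated arrays, which had no part in the fit. Over the 117 higher islands the median IMS was 0.421 in EB5 and 0.532 in TT2, below the cultures made from them (1.40 to 1.89) and the teratomas (2.71 and 2.86). Over the 239 lower islands it was 0.418 in EB5 and 0.576 in TT2, between the teratomas (-0.143 and -0.0799) and the cultures (0.878 to 1.32).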
